A study of Mus musculus with 94 samples.

Results

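Single copies of LINE-1 (L1) retrotransposons, 7 in number and named L1MEd_dup2089, L1ME3Cz_dup549, Lx7_dup29483, L1MEi_dup274, L1M4_dup8058, L1Md_F3_dup1623 and L1Md_T_dup9904, were described in cortex and hippocampus of Ts65Dn and wild-type mice. These 7 elements, of 430083 in the table of L1 counts, were chosen by their raw read counts, as copies among the most abundant of the series. Their levels, shares and ranks are therefore a description and were not tested. The rule that chose them is one of counts. It also asks for the tissue difference, the spread between animals and the co-variation of the elements, across tissues and groups. It was set with earlier results of these data known, so that these comparisons cannot be taken as independent of the choice. A sum over both tissues also favours elements that are high in the more deeply counted tissue. No position or sequence of the 7 elements was used here, and they are identified by their subfamily and copy number as named in the table.

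L1 elements are retrotransposons that move by a copy-and-paste mechanism: a full-length copy is transcribed, and its RNA encodes an RNA-binding protein and a protein with endonuclease and reverse transcriptase activity, which writes a new DNA copy into the genome. Most copies in the mouse genome are truncated or mutated and can no longer move, but RNA can still be read from them when they lie within or beside a transcribed gene. The L1MEd, L1ME3Cz, L1MEi and L1M4 names mark old subfamilies shared among mammals, Lx7 belongs to the rodent Lx lineage, and L1Md_F3 and L1Md_T belong to mouse lineages, of which L1Md_T includes young copies that are still able to move. A count on an L1 copy does not tell a transcript that starts in the copy from one that runs through it, and reads of young copies with many near-identical relatives are assigned with less certainty than reads of old, diverged copies.

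RNA was sequenced by the authors from male mice. The study's methods give 3 to 4 months as the age of the mice used in the experiments. Ts65Dn (TS) mice carry a segmental trisomy and model Down syndrome, and wild-type (WT) littermates were the controls. Mice received lamivudine, an inhibitor of reverse transcriptase, at 3 mg/kg in the drinking water (-t) or water without it (-nt). This was given for 4 months, and the age at which tissue was taken afterwards is not stated. Of the 94 libraries, 48 were from cortex and 46 from hippocampus. In cortex 9 were TS-nt, 13 TS-t, 9 WT-nt and 17 WT-t, in hippocampus the non-treated groups had 8 each and the treated groups were as in cortex, and 46 mice had both tissues. Mice are numbered here from 1 to 48. The labels name 1 animal per library, but the study's methods also mention pooling of samples, and if libraries were pools the spread given here is that of pools.

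The sum of L1 counts was between 186545 and 1165192 per cortex library and between 178454 and 403378 per hippocampus library. The table holds no gene, so that the tissue labels could not be checked against markers. In cortex 8 libraries stood apart, lying on the first principal component at over 3 median absolute deviations from its centre: mice 1, 3, 4 and 47 (WT-t), 2 and 8 (TS-t), 23 (TS-nt) and 24 (WT-nt). They are called far libraries here, and no hippocampus library was among them. The cortex library of mouse 14 (TS-t) came next, at 2.70 deviations. The far libraries of mice 1, 2, 3 and 4 were among the 7 mice whose animal label begins with 18, and all non-treated mice had labels beginning with 20. In the cortex library of mouse 1 only 3168 elements had a count, while the cortex library with the most, of mouse 27, had 132569. The joint share, the sums of counts, the tissue comparisons and the correlations are given with and without them. The coefficients of variation, the shares within subfamilies and the values of the group comparisons are given with them included.

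The 7 elements together held 11.2% of all L1 counts of the series. In cortex their joint share of the L1 counts of a library was 4.93% at the lowest, 9.95% at the median and 46.2% at the highest, with a mean of 11.9% ± 7.06 (SD, n = 48). In hippocampus it was 6.43%, 10.9% and 20.1%, with a mean of 10.9% ± 2.45 (SD, n = 46). The highest cortex share was that of mouse 1. Without the far libraries the cortex mean was 9.87% ± 3.13 (SD, n = 40), and in the 8 far libraries it was 21.8% ± 12.0.

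The 5 elements with the most counts were all among the 7. L1MEd_dup2089 came first with 1167976 counts (4.04% of all L1 counts), followed by L1ME3Cz_dup549 with 935619 (3.24%), Lx7_dup29483 with 504130 (1.75%), L1MEi_dup274 with 298286 (1.03%) and L1Md_T_dup9904 with 209391 (0.725%). L1M4_dup8058 was at rank 13 with 91652 counts (0.317%) and L1Md_F3_dup1623 at rank 43 with 31792 (0.110%). The set was thus not the top of the list: 36 elements outside it had more counts than L1Md_F3_dup1623, from Lx3B_dup3459 with 170587, L1MC4_dup2661 with 151785 and Lx_dup18222 with 142601 downwards. The next below L1Md_F3_dup1623 was L1MC4_dup5006 with 31676 counts. Parts of this order rested on the 8 far cortex libraries, which held 30.1% of the counts of L1MEd_dup2089 and 77.5% of those of L1Md_T_dup9904. Over the 86 libraries left, L1ME3Cz_dup549 came first with 854930 counts and L1MEd_dup2089 second with 816465, and L1Md_T_dup9904 fell from rank 5 to rank 18 with 47043 counts, while Lx3B_dup3459 stood at rank 5 with 155379. L1M4_dup8058 was then at rank 12 and L1Md_F3_dup1623 at rank 65. Within single libraries the median rank of L1Md_T_dup9904 was 33.5 in cortex and 78.5 in hippocampus. These sums are not set per length of the copy.

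The most abundant element of a cortex library was L1MEd_dup2089 in 38 libraries, L1ME3Cz_dup549 in 9 and Lx7_dup29483 in 1. In hippocampus the order of the first 2 was turned, with L1ME3Cz_dup549 first in 38 libraries and L1MEd_dup2089 in 8. All 7 elements had a count in 93 of the 94 libraries. The exception was L1Md_T_dup9904 in the cortex of mouse 45, where 0 of 301439 counts allow a share of up to 0.000995% (3 counts, counting error only).

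L1MEd_dup2089 held a share of 0.0328% at the lowest, 3.72% at the median and 24.2% at the highest in cortex, and 0.0429%, 3.20% and 6.25% in hippocampus. Most libraries lay close together and a few lay far out on both sides. Counts in cortex were 87144 in mouse 24, 77638 in mouse 1, 47518 in mouse 8 and 39413 in mouse 14, against a median of 10936.5, and they were 99 in mouse 45 and 1042 in mouse 38. In hippocampus the lowest count was 131, in mouse 37, and the median was 8361.5. These mice were low in 1 tissue only: mouse 45 had 7397 counts and mouse 38 had 9873 in hippocampus, and mouse 37 had 17226 in cortex. In those same 3 libraries L1Md_T_dup9904 had 0, 5 and 5 counts, and in the other tissue of the same mice it had 102, 502 and 368. L1Md_T_dup9904 was also low in libraries where L1MEd_dup2089 was not. The count ratio of L1MEd_dup2089 to it was 35.3 at the median and 3653.75 at the highest in cortex. In hippocampus that ratio was 35.5 and 1450.5.

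L1Md_T_dup9904 had the widest spread of the 7. Its share in cortex was 0% at the lowest, 0.133% at the median and 17.2% at the highest, and in hippocampus 0.00153%, 0.0840% and 0.530%. In cortex 6 libraries stood above the others: 55161 in mouse 1, 49571 in mouse 24, 20275 in mouse 8, 18366 in mouse 4, 16865 in mouse 2 and 13721 in mouse 14. The next library, of mouse 27, had 4351, and the cortex median was 412.5. All of these but that of mouse 14 were far libraries. In hippocampus the same 6 mice had 313, 951, 265, 132, 20 and 184 counts, within the range of 4 to 1340 of the other mice. Of the 209391 counts of this element, 196191 were from cortex.

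L1ME3Cz_dup549 and L1MEi_dup274 were even across libraries. The share of L1ME3Cz_dup549 was 1.23%, 2.70% and 4.22% (lowest, median, highest) in cortex and 1.96%, 3.99% and 8.09% in hippocampus. That of L1MEi_dup274 was 0.310%, 0.881% and 1.26% in cortex and 0.658%, 1.30% and 2.59% in hippocampus. Both medians were higher in hippocampus, and the ranges of the tissues overlapped.

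Lx7_dup29483 and L1M4_dup8058 had nearly equal medians in the tissues. Lx7_dup29483 held 0.325%, 1.89% and 2.84% in cortex and 1.26%, 1.80% and 2.55% in hippocampus, and L1M4_dup8058 held 0.0603%, 0.338% and 0.466% in cortex and 0.170%, 0.344% and 0.485% in hippocampus. The lowest cortex share of both was in mouse 24, where the L1 total was the highest of the series. L1Md_F3_dup1623, the least abundant of the 7, held 0.0262%, 0.0861% and 0.949% in cortex, with the highest value in mouse 1, and 0.0473%, 0.102% and 0.214% in hippocampus.

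**Figure D1:**
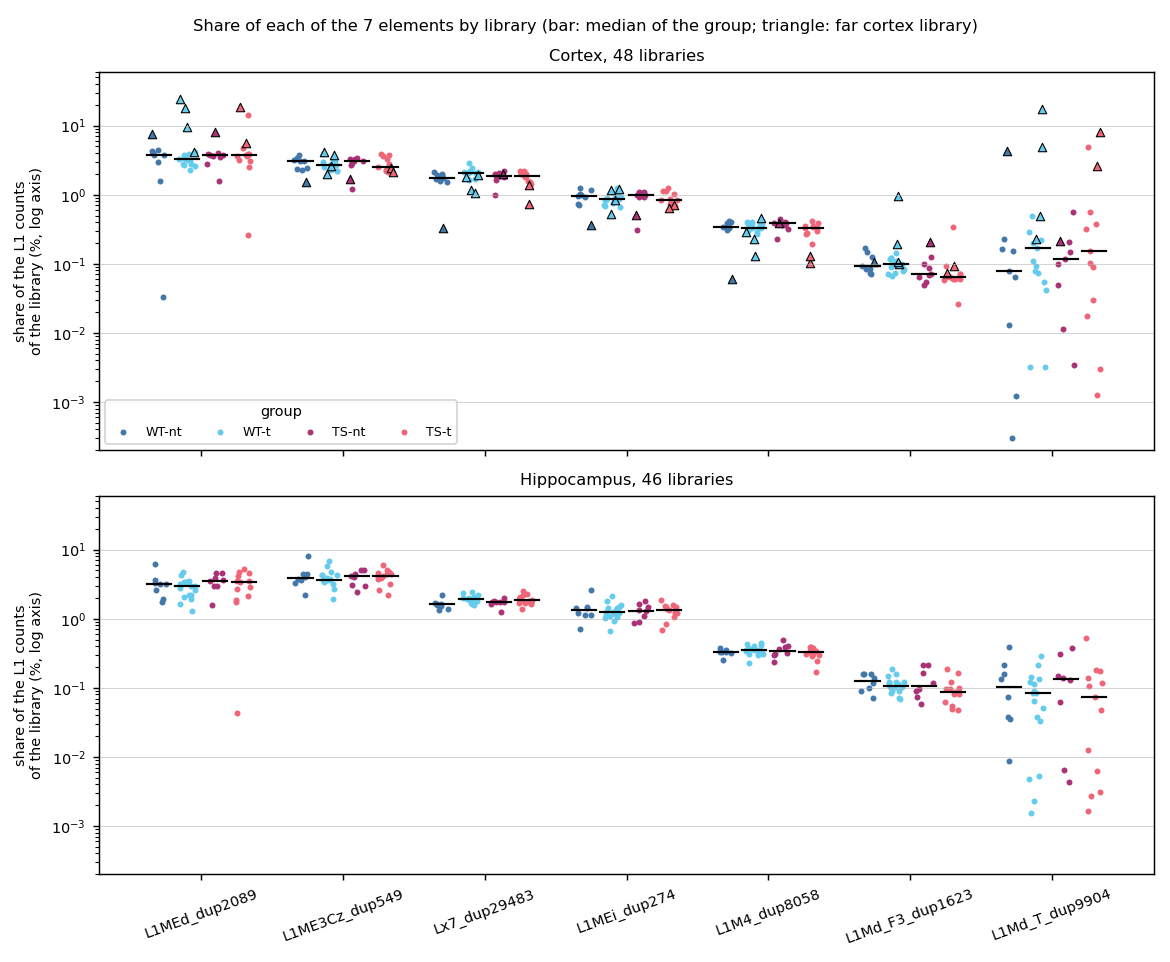
Share of the L1 counts of a library (%, log axis) held by each of the 7 elements in cortex and hippocampus, by group; each point is a library, bars are group medians, triangles are the 8 far cortex libraries, and the single count of 0 is drawn at the foot of the axis. L1MEd_dup2089 and L1Md_T_dup9904 scatter over several orders of magnitude in cortex, up to 24.2% and 17.2%, while L1ME3Cz_dup549 stays between 1.23% and 4.22%.

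The spread between libraries was compared with that of all elements tested. In hippocampus the coefficient of variation of the share was 15.4% for Lx7_dup29483 and 17.2% for L1M4_dup8058, against 1.46% and 3.41% from counting error alone. It was 28.7% for L1ME3Cz_dup549, 27.6% for L1MEi_dup274, 37.4% for L1MEd_dup2089, 37.2% for L1Md_F3_dup1623 and 105% for L1Md_T_dup9904. For all 7 the counting error was smaller than this spread.

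The biological coefficient of variation of edgeR, which is the spread between libraries of a group beyond counting error, was 0.215 for Lx7_dup29483 and 0.219 for L1M4_dup8058 in hippocampus, at the 0.354th and the 0.472th percentile of the 4238 elements tested. L1ME3Cz_dup549 (0.319) and L1MEi_dup274 (0.311) were at the 8.12th and the 7.08th percentile. L1Md_T_dup9904 was at 1.02, the 93.1th percentile. In cortex Lx7_dup29483 (0.358), L1M4_dup8058 (0.356), L1ME3Cz_dup549 (0.378) and L1MEi_dup274 (0.377) were all at or below the 1.27th percentile of the 5416 elements tested, L1MEd_dup2089 (0.717) was at the 38.5th percentile and L1Md_T_dup9904 (1.48) at the 99.6th. High count and low spread thus went together for 4 elements in cortex and not for L1MEd_dup2089 or L1Md_T_dup9904. These percentiles are over elements of all counts. At the abundance of L1MEd_dup2089 the fitted trend was 0.511 in cortex, below its 0.717, and 0.357 in hippocampus, below its 0.470. The 4 elements of low spread lay below the trend at their abundance in cortex.

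Each element was the most abundant copy of its subfamily, a measure close to the one they were chosen by, and the distance to the other copies differed. L1MEi_dup274 held 97.7% of the counts of the 196 L1MEi copies and L1ME3Cz_dup549 held 97.1% of those of the 527 L1ME3Cz copies, 441-fold and 259-fold above the next copy. L1MEd_dup2089 held 90.5% of the counts of 1714 copies, 59.1-fold above the next. Lx7_dup29483 held 34.4% of 15508 copies' counts, L1Md_T_dup9904 23.2% of 20184, L1M4_dup8058 19.2% of 7152 and L1Md_F3_dup1623 8.68% of 10149. For 3 of the old subfamilies the subfamily total was thus close to the count of 1 copy. In cortex the share of L1Md_T counts on L1Md_T_dup9904 ran from 0% to 92.6% of a library, with a median of 5.24%, and in hippocampus from 0.0684% to 20.5%.

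Whether the elements differed between the tissues was tested with edgeR's quasi-likelihood test over all 94 libraries, with p-values adjusted over all elements tested. L1ME3Cz_dup549 and L1MEi_dup274 were lower in cortex than in hippocampus, and L1MEd_dup2089 and L1Md_T_dup9904 were higher in cortex. Of 7551 elements tested, 1712 (22.7%) had an adjusted p below 0.1, and of the 7 there were 4. In all elements, 12.2% were called higher in cortex and 10.4% higher in hippocampus, and of the 7 there were 2 in each direction. The median log2 fold change of all elements was 0.09.

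L1ME3Cz_dup549 was lower in cortex by a log2 fold change of -0.40 (SE 0.085, adjusted p = 0.000104, edgeR). L1MEi_dup274 was lower by -0.44 (SE 0.086, adjusted p = 1.49e-05). L1MEd_dup2089 was higher in cortex by 0.72 (SE 0.22, adjusted p = 0.0115) and L1Md_T_dup9904 by 2.78 (SE 0.59, adjusted p = 0.000174). L1Md_T_dup9904 was chosen by summed counts, of which 196191 of 209391 were from cortex. Without the far cortex libraries it fell from rank 5 to rank 18. Its choice thus favoured a higher level in cortex, and its adjusted p cannot be taken as independent of that choice. Lx7_dup29483 had a log2 fold change of 0.12 (adjusted p = 0.321), L1M4_dup8058 of 0.07 (adjusted p = 0.650) and L1Md_F3_dup1623 of 0.02 (adjusted p = 0.947). The sizes of L1ME3Cz_dup549 and L1MEi_dup274 were close to each other, and that of L1Md_T_dup9904 was by far the largest of the 7.

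Without the 8 far cortex libraries the calls divided differently. L1ME3Cz_dup549 (log2 fold change -0.38, adjusted p = 0.000416) and L1MEi_dup274 (-0.40, adjusted p = 0.000229) were still called lower in cortex. L1MEd_dup2089 fell to 0.28 (adjusted p = 0.307) and L1Md_T_dup9904 to 0.90 (adjusted p = 0.161), and neither was called. Lx7_dup29483 (0.20, adjusted p = 0.000594) and L1M4_dup8058 (0.17, adjusted p = 0.0218) were called higher in cortex. Of all elements tested in that setting 29.4% were called, and 60.3% of those called were higher in cortex. The median log2 fold change of all elements was then 0.15. Relative to this median Lx7_dup29483 was at 0.048 and L1M4_dup8058 at 0.015. Leaving out the cortex library of mouse 14 as well brought L1MEd_dup2089 to 0.15 (adjusted p = 0.569) and L1Md_T_dup9904 to 0.37 (adjusted p = 0.568), and L1Md_F3_dup1623 was then called lower in cortex (-0.31, adjusted p = 0.0198). Within mice with labels beginning with 20 the calls were L1ME3Cz_dup549 (-0.31, adjusted p = 0.00413) and L1MEi_dup274 (-0.34, adjusted p = 0.00543) alone.

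The scaling of the libraries moved the balance of calls over all elements. With TMM factors 54.0% of the called elements were higher in cortex, with DESeq2 size factors 70.2%, with the L1 total as library size 36.9% and with the L1 counts outside the 7 elements 37.4%. The median log2 fold change of all elements moved by 0.14 with DESeq2 size factors, by -0.13 with the L1 total and by -0.12 with the counts outside the 7. L1ME3Cz_dup549 and L1MEi_dup274 were called lower in cortex, and L1MEd_dup2089 and L1Md_T_dup9904 higher, under each of these scalings. With DESeq2 size factors Lx7_dup29483 (0.24, adjusted p = 0.000952) and L1M4_dup8058 (0.19, adjusted p = 0.0419) were called higher in cortex as well, and with the L1 total as library size they were at -0.0041 and -0.04. Relative to the median of all elements, L1ME3Cz_dup549 was at -0.49 and L1MEi_dup274 at -0.52 with TMM factors. Lx7_dup29483 was at 0.012 and L1M4_dup8058 at -0.033 relative to the median with DESeq2 size factors.

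**Figure D2:**
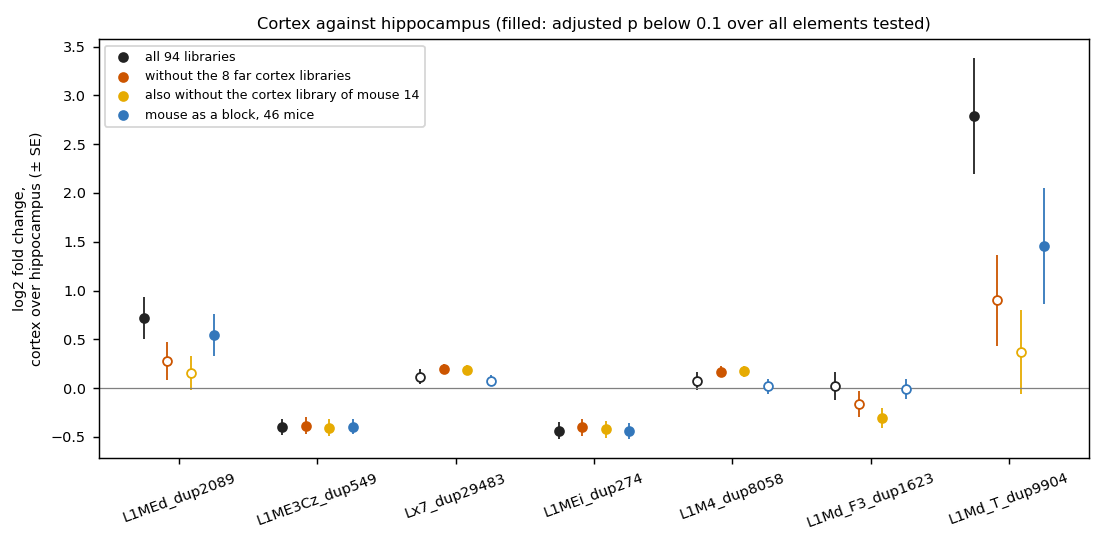
Log2 fold change of cortex over hippocampus (± SE) of each of the 7 elements from edgeR with all 94 libraries, without the 8 far cortex libraries, also without the cortex library of mouse 14, and with mouse as a block in 46 mice; filled points had an adjusted p below 0.1 over all elements tested. L1ME3Cz_dup549 and L1MEi_dup274 lie below 0 and filled in every setting drawn, while L1Md_T_dup9904 moves from 2.78 to 0.37.

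The other copies of the 7 subfamilies were read beside their most abundant member. Of the other elements tested, 22.6% were called between the tissues. No other copy was called of the 11 L1ME3Cz and 3 L1MEi copies tested, whose main copies were lower in cortex. Of 34 other L1MEd copies 1 was higher and 4 were lower in cortex, against the higher level of L1MEd_dup2089. Of 247 other L1Md_T copies 32 were higher and 16 lower, of 278 Lx7 copies 39 and 29, of 122 L1Md_F3 copies 11 and 19, and of 100 L1M4 copies 6 and 7. Shares called of at most 24.6% in these subfamilies were near or below the background.

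Within mice, the difference between cortex and hippocampus on the log2 CPM scale (L1 counts scaled to the TMM library size) was taken for the 46 mice with both tissues and tested with a two-sided sign-flip permutation test. L1ME3Cz_dup549 was higher in hippocampus in 38 of 46 mice, by -0.41 ± 0.56 (SD) in cortex minus hippocampus (permutation p = 1e-05, the smallest the draws can give), and L1MEi_dup274 also in 38 of 46 mice, by -0.46 ± 0.62 (permutation p = 1e-05). L1MEd_dup2089 was higher in cortex in 38 of 46 mice, by 0.50 ± 1.64 (permutation p = 0.0394), and L1Md_T_dup9904 in 32, by 1.30 ± 3.61 (permutation p = 0.0192). These p-values are unadjusted. For L1Md_T_dup9904 the p-values here and in the block fit are also not independent of its choice by counts mostly from cortex. In the edgeR fit with mouse as a block and p-values adjusted over all elements, the log2 fold changes were -0.39 (adjusted p = 0.000141) for L1ME3Cz_dup549, -0.44 (adjusted p = 1.07e-05) for L1MEi_dup274, 0.54 (adjusted p = 0.0653) for L1MEd_dup2089 and 1.46 (adjusted p = 0.0773) for L1Md_T_dup9904.

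Lx7_dup29483 was higher in cortex in 36 of 46 mice although its mean difference was 0.06 ± 0.44 (permutation p = 0.387), with a few mice far below: -1.57 in mouse 1, -1.53 in mouse 24 and -0.95 in mouse 2. Without the mice of far libraries it was higher in cortex in 34 of 38 mice, by 0.19 ± 0.19 (permutation p = 1e-05), and L1M4_dup8058 in 29 of 38, by 0.12 ± 0.22 (permutation p = 0.00192). The median log2 fold change of all elements in the block fit without far libraries was 0.19. Relative to that median Lx7_dup29483 was at -0.0011 and L1M4_dup8058 at -0.080. In those 38 mice L1MEd_dup2089 differed by 0.30 ± 1.72 (permutation p = 0.317) and L1Md_T_dup9904 by 0.67 ± 3.37 (permutation p = 0.228). L1Md_F3_dup1623 was higher in cortex in 24 of 46 mice (-0.02 ± 0.78, permutation p = 0.844). The p of L1MEd_dup2089 in 46 mice was above 0.05 when any single one of 10 mice was left out (mice 1, 3, 4, 8, 9, 14, 23, 24, 37 and 43), with a mean of 0.36 without mouse 37.

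In each of the 4 groups the median within-mouse difference was below 0 for L1ME3Cz_dup549, at -0.30 in WT-nt, -0.52 in WT-t, -0.44 in TS-nt and -0.41 in TS-t mice, and for L1MEi_dup274, at -0.35, -0.47, -0.39 and -0.41. That of L1MEd_dup2089 was above 0 in each group, at 0.30, 0.57, 0.21 and 0.61. For L1M4_dup8058 all 8 TS-nt mice and 7 of 8 WT-nt mice were higher in cortex, against 8 of 17 WT-t and 7 of 13 TS-t mice. Whether the groups differed in this was tested only through the differences of group effects between the tissues, which called none of the 7. Of the 8 far cortex libraries 6 were of treated mice. Treated mice were also the larger part of all 48 cortex libraries (13 TS-t and 17 WT-t).

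**Figure D3:**
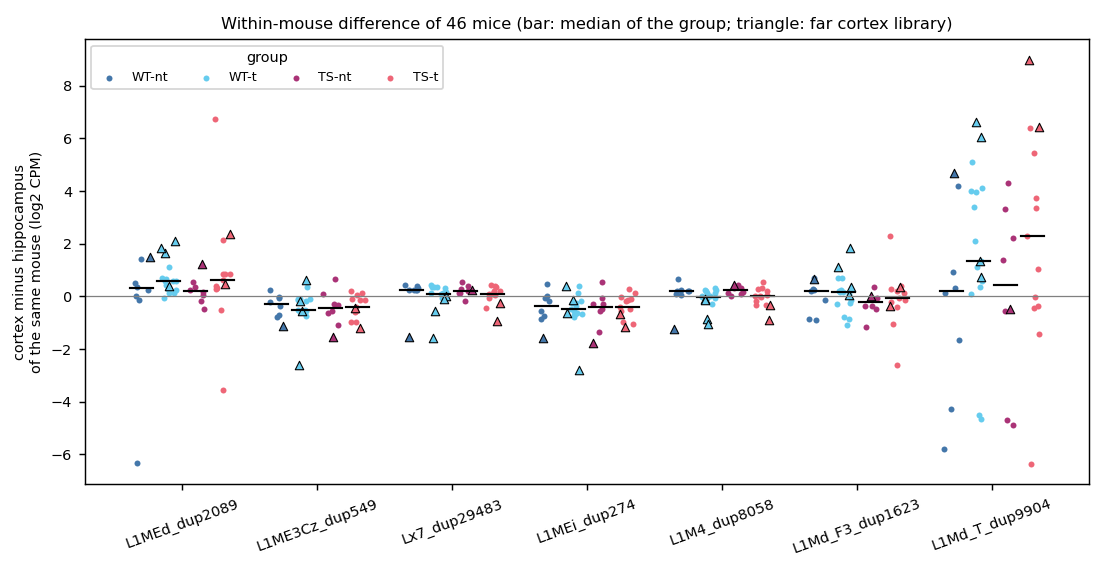
Cortex minus hippocampus of the same mouse (log2 CPM) for each of the 7 elements and 46 mice, by group; bars are group medians and triangles mark mice with a far cortex library. Most points of L1ME3Cz_dup549 and L1MEi_dup274 lie below 0 (38 of 46 mice each), and those of L1Md_T_dup9904 run from -6.37 to 8.99.

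The groups of genotype and treatment were compared within each tissue. None of the 7 elements was called in any of the 12 within-tissue comparisons (the genotypes within each treatment, the treatments within each genotype, TS-t against WT-nt and the interaction of genotype and treatment, in both tissues) with edgeR's quasi-likelihood test. Over all elements tested the share called was 0% in all comparisons in cortex, where 49 to 106 of 5416 elements had an unadjusted p below 0.05. In hippocampus it was 0.0708% for TS-nt vs. WT-nt, 0.0472% for TS-t vs. WT-nt and 0% for the other comparisons, where 132 to 180 of 4238 elements had an unadjusted p below 0.05. None of the 7 was called with the DESeq2 Wald test either. The 3 tested differences of a group effect between the tissues called none of the 7 and 0% of all elements, with 117 to 134 of 7551 at an unadjusted p below 0.05.

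Of the 105 values of the 7 elements in these 15 comparisons, 5 had an unadjusted p below 0.05, and they came from 2 elements. Lx7_dup29483 accounted for 3 of them, all in hippocampus. Its share there was 1.35% at the lowest, 1.61% at the median and 2.24% at the highest in WT-nt, 1.26%, 1.75% and 2.0% in TS-nt, 1.58%, 1.96% and 2.42% in WT-t and 1.39%, 1.86% and 2.55% in TS-t mice. Medians were higher in both treated groups and the ranges of all groups overlapped. The log2 fold change was 0.21 (SE 0.093, p = 0.0245) in WT-t vs. WT-nt, 0.23 (SE 0.097, p = 0.0202) in TS-t vs. TS-nt and 0.24 (SE 0.097, p = 0.0153) in TS-t vs. WT-nt, with adjusted p-values in edgeR of 1.00, 1.00 and 0.923. TS-t vs. WT-nt shares its WT-nt libraries with WT-t vs. WT-nt and its TS-t libraries with TS-t vs. TS-nt. In exact permutation tests of mean log2 CPM the unadjusted p was 0.00157 for WT-t vs. WT-nt, 0.0655 for TS-t vs. TS-nt and 0.0400 for TS-t vs. WT-nt, of 70 such tests, 2 of which were below 0.05. In mice with labels beginning with 20, to which all non-treated mice belong, the 3 log2 fold changes were 0.15, 0.16 and 0.18, with unadjusted edgeR p-values of 0.301, 0.157 and 0.101. When all elements with at least 10 counts in total were tested, Lx7_dup29483 was called in these 3 comparisons, with log2 fold changes of 0.30 (adjusted p = 0.0259), 0.27 (adjusted p = 0.0661) and 0.31 (adjusted p = 0.0367), and with no filter it was not (adjusted p = 0.111, 0.204 and 0.131). The number of all elements called in these comparisons reached 15955, 17999 and 18122 among the alternatives. In the main fit it was 0, 0 and 2. The alternatives tested different numbers of elements, so these numbers are not shares. Whether a call of Lx7_dup29483 under an alternative is particular to it was not tested.

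L1Md_T_dup9904 accounted for the other 2. In cortex its share was 0.00345% at the lowest, 0.116% at the median and 0.570% at the highest in TS-nt and 0.00125%, 0.155% and 8.04% in TS-t mice. The groups overlapped over nearly the whole range of TS-nt, and 3 TS-t libraries, of mice 2, 8 and 14, lay above it. The log2 fold change of TS-t vs. TS-nt was 3.35 (SE 1.53, unadjusted p = 0.0338, adjusted p = 1.00 in edgeR), and it was -0.13 in mice with labels beginning with 20, which leaves out those 3 mice. The difference of this change between cortex and hippocampus was 3.72 (SE 1.60, unadjusted p = 0.0228, adjusted p = 1.00).

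Medians of the share of L1MEd_dup2089 in cortex were 3.79% in WT-nt, 3.30% in WT-t, 3.73% in TS-nt and 3.79% in TS-t mice, and of L1ME3Cz_dup549 3.05%, 2.69%, 3.07% and 2.52%. In hippocampus L1MEd_dup2089 was at 3.23%, 2.96%, 3.57% and 3.36% and L1ME3Cz_dup549 at 3.92%, 3.67%, 4.11% and 4.16%. No pair of groups was without overlap for any of the 7 elements. No other copy of the 7 subfamilies was called in a comparison of groups.

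The variation of the log2 CPM values of the 46 mice with both tissues was divided into parts. The 4 groups held between 0.106% (L1Md_T_dup9904) and 8.90% (L1Md_F3_dup1623) of the sum of squares, and mice within groups between 37.5% (L1MEi_dup274) and 70.0% (L1M4_dup8058). The tissue held 22.4% for L1MEi_dup274, 19.5% for L1ME3Cz_dup549 and at most 5.15% for the other 5. The part of the mice takes in chance differences between libraries as well, since each mouse gave 1 library per tissue, and its size was not tested against the remainder. Without the mice of far libraries the groups held 16.7% and the tissue 14.7% for Lx7_dup29483.

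Co-variation of the elements was measured over the libraries of a tissue, as Spearman's rho of log2 CPM with a permutation test and adjustment over the 42 relations of 21 pairs in both tissues. Values without the far libraries, which are for cortex only, were adjusted over its 21 pairs. The points of a library share its depth and its scaling. In cortex 9 of the 21 pairs had an adjusted p below 0.1 (6 positive and 3 negative), and in hippocampus 9 (7 positive and 2 negative).

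L1ME3Cz_dup549 and L1MEi_dup274 moved together almost in proportion. The rank correlation was 0.95 in cortex and 0.96 in hippocampus (permutation p = 1e-05 and adjusted p = 0.00014 in both), and Pearson's r was 0.97 and 0.98 (permutation p = 1e-05, adjusted p = 8.4e-05). With the 2 most distant libraries left out r was 0.95 in cortex and 0.98 in hippocampus, and without the far libraries rho was 0.97. Within mice with labels beginning with 18, 19 and 20 rho was 0.96, 0.97 and 0.95 in cortex and 0.96, 0.95 and 0.95 in hippocampus. The ratio of their counts was 2.63 at the lowest, 3.16 at the median and 4.23 at the highest in cortex and 2.83, 3.05 and 3.45 in hippocampus. The SD of the log2 ratio was 0.11 in cortex and 0.08 in hippocampus, against 0.03 from counting error in both, so that the ratio varied by more than counting error. The 2 elements belong to different subfamilies, and the ratio was highest in the cortex of mouse 24 (17940 and 4244 counts).

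Lx7_dup29483 and L1M4_dup8058 also moved together, with rho of 0.51 in cortex (permutation p = 0.00027, adjusted p = 0.00227) and 0.32 in hippocampus (permutation p = 0.0328, adjusted p = 0.0891). Pearson's r was 0.78 in cortex (permutation p = 1e-05, adjusted p = 8.4e-05) and 0.26 in hippocampus (permutation p = 0.0815, adjusted p = 0.137). Without the 2 farthest libraries r was 0.57 and 0.20, and without the far libraries rho in cortex was 0.35 (adjusted p = 0.0935). Their count ratio was 5.41 at the median in cortex and 5.35 in hippocampus, with a wider range than the first pair, from 3.93 to 10.7 and from 3.67 to 10.9.

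**Figure D4:**
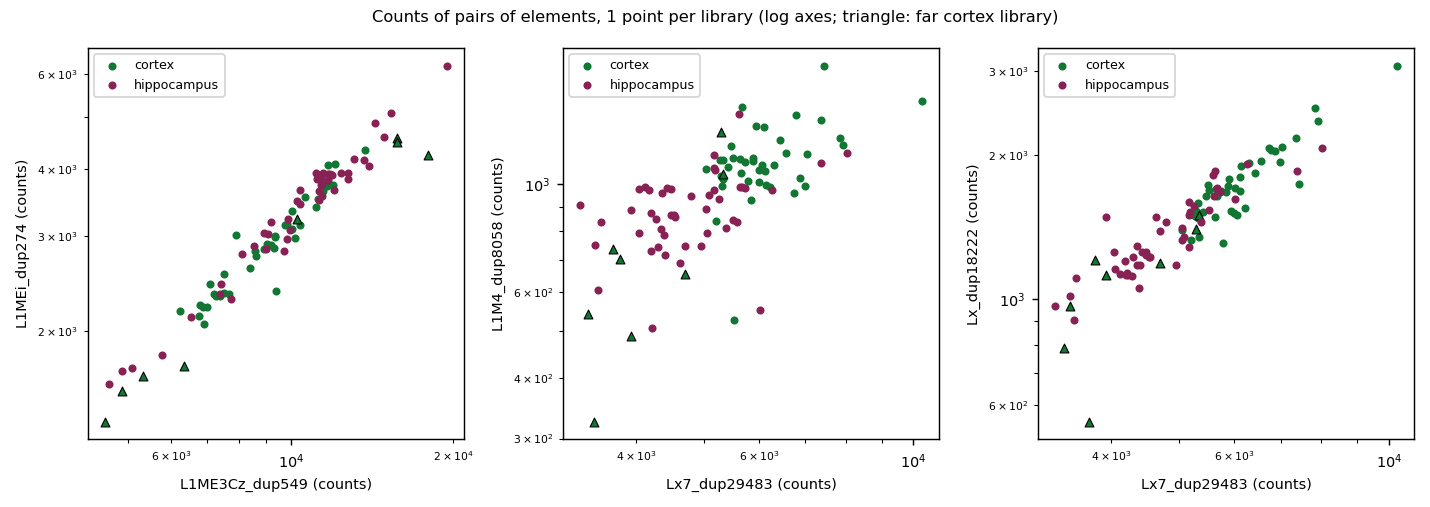
Counts of 3 pairs of elements (log axes), with 1 point per library, in cortex and hippocampus; triangles are far cortex libraries. L1ME3Cz_dup549 and L1MEi_dup274 fall on a narrow band in both tissues (median ratio 3.16 and 3.05), the band of Lx7_dup29483 and L1M4_dup8058 is wider, and Lx_dup18222 follows Lx7_dup29483.

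L1Md_T_dup9904 moved against Lx7_dup29483 and L1M4_dup8058 in cortex. The rank correlation was -0.63 with L1M4_dup8058 (permutation p = 1e-05, adjusted p = 0.00014) and -0.52 with Lx7_dup29483 (permutation p = 0.00024, adjusted p = 0.00227), and r was -0.72 and -0.52. Without the 2 farthest libraries r was -0.67 and -0.36, and without the far libraries rho was -0.50 (adjusted p = 0.0134) and -0.36 (adjusted p = 0.0933). In hippocampus rho was -0.33 with Lx7_dup29483 (adjusted p = 0.0872) and -0.12 with L1M4_dup8058 (adjusted p = 0.618). The difference between the tissues was not tested.

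The other correlations of L1MEd_dup2089 and L1Md_F3_dup1623 in cortex rested more on the far libraries. With all libraries rho was 0.43 between L1MEd_dup2089 and L1Md_F3_dup1623, 0.35 between L1MEd_dup2089 and L1Md_T_dup9904, 0.32 between L1Md_F3_dup1623 and L1Md_T_dup9904 and -0.30 between L1MEd_dup2089 and L1M4_dup8058. Without them the values were 0.19, 0.02, 0.08 and 0.04, none with an adjusted p below 0.1. Conversely, L1MEd_dup2089 and L1ME3Cz_dup549 went from 0.31 to 0.45, and L1MEd_dup2089 and L1MEi_dup274 from 0.25 to 0.48. In hippocampus, which has no far library, L1MEd_dup2089 had a rho of 0.36 with L1MEi_dup274, 0.34 with L1Md_F3_dup1623, 0.31 with L1Md_T_dup9904 and -0.38 with L1M4_dup8058, with adjusted p-values between 0.0535 and 0.0891.

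**Figure D5:**
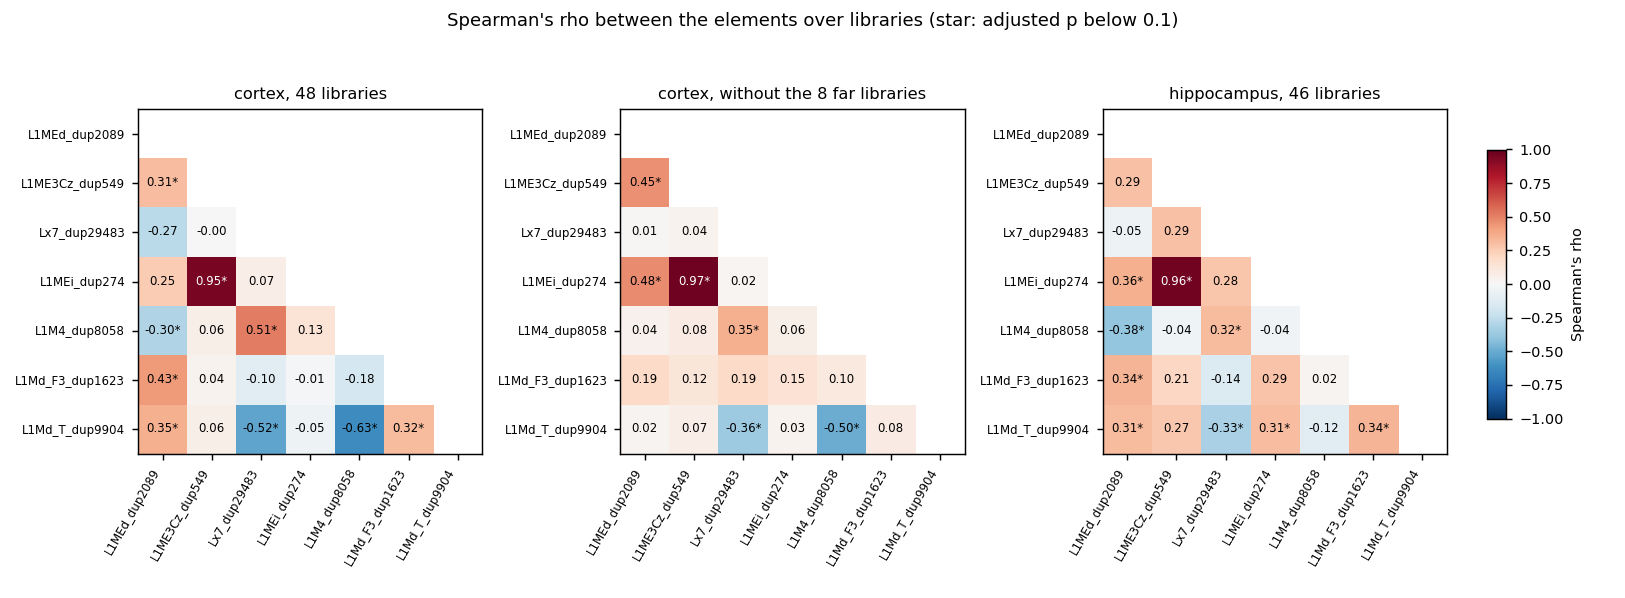
Spearman's rho between the 7 elements over libraries in cortex (48 libraries), in cortex without the 8 far libraries and in hippocampus (46 libraries); colour gives rho from -1 to 1 and a star marks an adjusted p below 0.1. Adjustment was over 42 relations for the panels with all libraries and over 21 for the panel without the far libraries. L1ME3Cz_dup549 and L1MEi_dup274 stand out in all 3 panels (0.95, 0.97 and 0.96).

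Whether a mouse that was high in cortex was also high in hippocampus was measured in the 46 mice with both tissues, with adjustment over the 7 relations. The rank correlation was 0.53 for L1MEd_dup2089 (permutation p = 0.00015, adjusted p = 0.00105), 0.52 for L1M4_dup8058 (permutation p = 0.0003, adjusted p = 0.00105), 0.43 for Lx7_dup29483 (permutation p = 0.00378, adjusted p = 0.00882), 0.38 for L1Md_F3_dup1623 (permutation p = 0.00942, adjusted p = 0.0165) and 0.32 for L1Md_T_dup9904 (permutation p = 0.0313, adjusted p = 0.0439). It was 0.29 for L1ME3Cz_dup549 (permutation p = 0.0480, adjusted p = 0.0560) and 0.13 for L1MEi_dup274 (permutation p = 0.393, adjusted p = 0.393). The pair that moved together most closely within a tissue thus had the lowest correlations between the tissues of a mouse with all mice included.

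Pearson's r had an adjusted p below 0.1 only for L1M4_dup8058 (r = 0.55, permutation p = 0.00024, adjusted p = 0.00168), and for the other 6 it was between 0.0028 and 0.23. Without the 2 mice farthest from the median r was 0.48 for L1M4_dup8058, 0.40 for Lx7_dup29483, 0.38 for L1ME3Cz_dup549 and 0.27 for L1MEd_dup2089. Without the mice of far libraries rho was 0.71 for Lx7_dup29483 (permutation p = 1e-05), 0.44 for L1ME3Cz_dup549 (permutation p = 0.00526), 0.38 for L1MEi_dup274 (permutation p = 0.0204) and 0.32 for L1MEd_dup2089 (permutation p = 0.0488, adjusted p = 0.0570). L1Md_T_dup9904 was then at 0.27 and no longer below an adjusted p of 0.1 (permutation p = 0.108, adjusted p = 0.108). L1MEd_dup2089 was at 0.27 once mouse 14 was also left out, and its adjusted p rose to 0.107 (permutation p = 0.107). Within mice with labels beginning with 20 rho was 0.20 for L1MEd_dup2089, 0.43 for L1M4_dup8058, 0.44 for Lx7_dup29483 and 0.56 for L1Md_F3_dup1623.

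The elements outside the 7 with the most similar pattern were sought among those tested in each tissue, by rho over its libraries and as a description. Lx_dup18222 was the closest to Lx7_dup29483 in both tissues, with rho of 0.93 over 48 cortex libraries and 0.86 over 46 hippocampus libraries. It held 554 counts at the lowest, 1662 at the median and 3081 at the highest in cortex, and the ratio of Lx7_dup29483 to it was 3.12, 3.49 and 6.70, with the highest value in mouse 1. In hippocampus the ratio was 2.65, 3.55 and 4.2. No other element had a rho above 0.8 with Lx7_dup29483 in either tissue. In hippocampus the next was Lx7_dup29484, the copy whose number follows, with rho of 0.56 (0.58 in cortex).

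L1MEg_dup2678 was the closest to L1MEd_dup2089 in cortex (rho 0.76) and the second closest in hippocampus (0.81, after L1Md_T_dup8312 with 0.82). In the libraries where L1MEd_dup2089 was lowest, L1MEg_dup2678 held 20 counts in mouse 45 and 26 in mouse 38 in cortex, and 7 in mouse 37 in hippocampus, against medians of 99 and 73.5. It was high where L1MEd_dup2089 was highest, with 1282 counts in mouse 24 and 1175 in mouse 1 in cortex.

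L1MD_dup3326 was the closest to L1M4_dup8058 in both tissues (rho 0.77 and 0.64). In cortex L1ME4a_dup316 was the closest to both L1ME3Cz_dup549 (0.65) and L1MEi_dup274 (0.67), and in hippocampus Lx5c_dup8083 was among the 3 closest to both (0.60 and 0.59), in each case well below the rho of the pair with each other. For L1Md_F3_dup1623 the closest were Lx_dup1329 in cortex (0.59) and Lx10_dup4640 in hippocampus (0.48), whose rho in the other tissue was 0.06 and -0.05. For L1Md_T_dup9904 they were L1MEg_dup601 in cortex (0.66, and 0.32 in hippocampus) and L1Md_T_dup20562 in hippocampus (0.58, and -0.17 in cortex).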

How the data were processed

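The authors sequenced ribosome-depleted total RNA with strand kept, used Trimmomatic 0.38 for trimming and HISAT2 2.1.0 for alignment to the GRCm38 (mm10) genome, keeping up to 5 alignments per read, and assigned them to single L1 copies with Telescope (StringTie 2.1.3b is also named in the submitters' processing notes). The deposited values are raw counts per L1 element, whole numbers that were not normalized, for 430083 elements and 94 libraries, all of which were used (0 columns were left out). Telescope shares out reads that align to several copies by a model, so counts of near-identical copies are uncertain, and counts do not tell transcripts that start in an L1 from those that run through it. Per the study's methods, pools of 3 samples of a condition were made ahead of the RNA measurement, while the labels name 1 animal per library; p-values measure the spread between these libraries.

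The share is the count divided by all L1 counts of the library. At the depths given in the report, the widest 95% Wilson interval of a share was 0.349 percentage points, and the limit that a count of 0 allows was set at 3 counts; both cover counting error only. Tissues and groups were compared with edgeR 4.0.16 (R 4.3.3, limma 3.58.1) on the deposited counts: filterByExpr (minimum count 10, total 15), TMM factors, glmQLFit with robust estimation, glmQLFTest, and Benjamini-Hochberg adjustment over all elements tested, with a threshold of 0.1. Log2 CPM used a prior count of 2. Within-mouse differences and correlations were computed in Python 3.11.15 (pandas 2.3.3, scipy 1.17.1, numpy 2.4.6) with two-sided permutation tests of 100000 draws, or exact ones where all could be enumerated. Groups were taken from the labels, and tissues were paired by the animal number that both libraries of a mouse carry. Scripts were tested on simulated data.

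The 7 elements, and the lists and tests used on them, were chosen with earlier results of these data known. The text names the 7, the 3 elements outside them most similar in each tissue by rho, up to 10 with higher sums than the lowest of the 7, and the next copy of each subfamily. Alternatives were DESeq2 1.42.0 (size factors and Wald test), the L1 total or the L1 counts outside the 7 as library size, no filter or at least 10 counts in total, a threshold of 0.05, only the groups compared, only mice with labels beginning with 20, mouse as a replicate block, leaving out the far libraries and leaving out each library or mouse. Leaving out mouse 14 with the far libraries, each mouse in turn, the block without far libraries, and the sums and ranks without far libraries were chosen after seeing the data. Positions and sequences of the elements were not used here.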

Additional observations from a re-analysis of the deposited data

Results flagged for a closer look

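In each group of 8 or 9 libraries the share of L1 counts was searched for a library far from the others (28 sets of 1 element and 1 group), and 13 held one. Chance flags about 1 in 20 for a single set of normally distributed values. The sets share libraries, and 1 odd library can be flagged for several elements, so the number flagged cannot be compared with that rate. No explanation was tested.

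In WT-nt mice 8 of the 13 came from 2 mice. The hippocampus of mouse 24 held shares of 6.25% for L1MEd_dup2089 (the others 1.74% to 3.63%), 8.09% for L1ME3Cz_dup549 (2.17% to 4.48%), 2.24% for Lx7_dup29483 (1.35% to 1.70%) and 2.59% for L1MEi_dup274 (0.705% to 1.48%). The cortex of the same mouse held 0.325% for Lx7_dup29483 (1.53% to 2.13%), 0.0603% for L1M4_dup8058 (0.308% to 0.416%) and 4.25% for L1Md_T_dup9904 (0% to 0.231%). The hippocampus of mouse 45 held 0.252% for L1M4_dup8058 (0.317% to 0.375%).

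In TS-nt mice the cortex of mouse 23 held 8.19% for L1MEd_dup2089 (the others 1.57% to 4.03%) and 0.207% for L1Md_F3_dup1623 (0.0488% to 0.126%). Mouse 27 held 0.975% for Lx7_dup29483 in cortex (1.63% to 2.19%) and 1.26% in hippocampus (1.66% to 2.0%), and 0.570% for L1Md_T_dup9904 in cortex (0.00345% to 0.214%). Lx7_dup29483 of mouse 27 was thus low in both tissues, and Lx7_dup29483 of mouse 24 was low in cortex and high in hippocampus.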

How the results depend on the processing

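In the comparison of tissues, the directions of L1ME3Cz_dup549 and L1MEi_dup274 (lower in cortex) held, with adjusted p below 0.1, under all alternatives run; the calls of L1MEd_dup2089 and L1Md_T_dup9904 were lost without far libraries (with or without mouse 14 or the replicate block) and in mice with labels beginning with 20. In those mice 2 of the 7 were called in place of 4, and 1060 of 11692 elements tested (9.07%) in place of 1712 of 7551 (22.7%). With at least 10 counts 30920 of 224327 elements (13.8%) were called and with no filter 25060 of 388747 (6.45%). Values that changed sign were those of Lx7_dup29483 (-0.0041 with the L1 total as library size), L1M4_dup8058 (-0.045 with the L1 total and -0.042 with the counts outside the 7) and L1Md_F3_dup1623 (-0.089 with the L1 total, -0.16 without far libraries, -0.31 also without mouse 14, -0.24 with labels beginning with 20, -0.010 with the replicate block, -0.13 with the block and without far libraries, and -0.10 to 0.089 leaving out each mouse). The replicate block, in which tissues were paired by mouse from the labels, called 4 of the 7 and 1921 of 7388 elements (26%). It changed no call of the 7. In hippocampus 1 of the 7, Lx7_dup29483, was called with at least 10 counts in each comparison of a treated with a non-treated group. The number of all elements called for TS-t vs. WT-nt reached 18122 in hippocampus and 64311 in cortex among the alternatives, which tested different numbers of elements. None of the 7 was called in a comparison of groups in cortex. L1Md_T_dup9904 in TS-t vs. TS-nt in cortex was at -0.13 with labels beginning with 20. The causes were not tested.

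Within mice, 2 of the 7 had an unadjusted p below 0.05 with labels beginning with 20 (4 with all mice, 3 to 4 leaving out each mouse). Mean differences of other sign were those of Lx7_dup29483 (-0.068 by share, -0.046 with the counts outside the 7, -0.40 with labels beginning with 18), L1M4_dup8058 (-0.12, -0.10, -0.35 and, with labels beginning with 19, -0.031; -0.010 to 0.032 leaving out each mouse) and L1Md_F3_dup1623 (0.63 with labels beginning with 18; -0.075 to 0.034 leaving out each mouse). The number of correlated pairs, 9 in each tissue, was 5 in cortex and 3 in hippocampus without the 2 farthest libraries, 2, 1 and 3 in cortex and 1, 1 and 3 in hippocampus with labels beginning with 18, 19 and 20, and 13 in hippocampus for deviations from group means. The sets by label hold only 7, 12 and 29 libraries in cortex and 7, 12 and 27 in hippocampus. The rank correlation changed sign between L1MEd_dup2089 and L1ME3Cz_dup549 (-0.18, cortex, 18), L1MEd_dup2089 and L1M4_dup8058 (cortex: 0.14 with 20, 0.041 without far libraries, 0.12 also without mouse 14), L1MEd_dup2089 and L1Md_T_dup9904 (-0.052, cortex, without far libraries and mouse 14), L1MEd_dup2089 and L1Md_F3_dup1623 (-0.24, hippocampus, 19) and L1MEi_dup274 and L1Md_T_dup9904 (-0.036, hippocampus, 18). Between tissues 6 elements correlated in 46 mice, and 1 by Pearson's r. With labels beginning with 18, 19 and 20 it was 0, 1 and 3, in only 7, 12 and 27 mice. Numbers called in sets of such different size cannot be compared directly. In the 7 mice a rho of 0.71 for L1M4_dup8058 had an adjusted p of 0.389 (permutation test). Values of other sign were -0.50 for L1ME3Cz_dup549 (18), -0.047 by share and -0.61 (18) for L1MEi_dup274 and -0.091 for L1Md_F3_dup1623 (19). With only the tested elements as denominator the 7 held 22.3% in cortex and 19.1% in hippocampus.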
